A study of Mus musculus with 8 samples.

Results

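This set of secreted acute-phase proteins of hepatocytes comprises 10 genes, *Lcn2*, *Apcs*, *Orm1*, *Orm2*, *Orm3*, *Itih3*, *Itih4*, *Fga*, *Fgb* and *Fgg*, which were taken by name from a count table of 23282 rows. The acute-phase response is the change in the plasma proteins made by the liver during infection or injury. Macrophages that sense lipopolysaccharide (LPS), a component of the outer membrane of gram-negative bacteria, release IL-6, IL-1β and TNF-α. In hepatocytes, IL-6 signals through STAT3 and raises fibrinogen and other proteins, while IL-1β and TNF-α act through NF-κB and C/EBP factors and raise proteins such as α1-acid glycoprotein. Among the proteins of the set, lipocalin 2 binds bacterial siderophores, serum amyloid P binds bacterial and apoptotic surfaces, and the orosomucoids carry lipophilic ligands. The inter-α-trypsin inhibitor heavy chain encoded by *Itih3* stabilizes hyaluronan-rich matrix, and fibrinogen forms the clot.

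Liver RNA of C57BL/6 mice, described as males 4 weeks of age, was sequenced from the 3′ ends of transcripts. The control group (labelled Normal) was injected with saline and the endotoxemic group with 25 mg/kg LPS. For the LGK974 group the labels name only LGK974, an inhibitor of Porcupine and thereby of Wnt secretion, while the study's text gives LGK974 at 60 mg/kg together with LPS at 25 mg/kg. According to the methods, livers were collected 6 h after LPS, and LGK974 was given 2 h before LPS in most experiments. By the study's text, no sequenced group received LGK974 without LPS, although other experiments of the study included mice given LGK974 alone. No source used here gives the number of mice behind a library.

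Several features of the libraries touch every result below. Of 8 libraries, endotoxemic libraries 3 and 4 repeated the counts of libraries 1 and 2 on every row and were counted once, which left 2 libraries in each of the 3 groups. Total counts ranged from 9142116 to 15222439, so that 3 counts, taken as the lowest signal a library can show, corresponded to 0.197 to 0.328 CPM (counts scaled to the size of the library), for counting error only. The female transcript *Xist* had 1171 to 3115 counts in the 4 libraries of the control and endotoxemic groups but 3 and 7 counts in the LGK974 libraries. The Y-linked gene *Ddx3y* had 0 counts in the 4 control and endotoxemic libraries and 1755 and 1392 counts in the LGK974 libraries. The control and endotoxemic libraries thus went against their description as male, and LGK974 treatment and this sex-linked difference cannot be told apart. Of 8 hepatocyte markers, 6 fell in the endotoxemic group, where 22.7% of the 12224 rows tested in genomic order were called lower. *Alb*, *Apoa1* and *Ttr* of this list are also among the negative acute-phase genes given further on. The 8 markers' summed level was 77627 to 108593 CPM in control libraries, 30895 to 47687 CPM in endotoxemic libraries and 33726 to 36578 CPM in LGK974 libraries. Of 2 tested platelet markers 1 rose in the endotoxemic group, *Pf4*, with 43 and 75 counts in control, 4995 and 6030 in endotoxemic and 884 and 138 in LGK974 libraries. The other, *Itga2b*, had 34 and 43, then 32 and 37, then 28 and 24 counts. Of the markers tested, 3 of 6 of Kupffer cells and macrophages, 2 of 5 of sinusoidal endothelial cells, 3 of 5 of stellate cells and 1 of 5 of cholangiocytes also fell in the endotoxemic group, and 1 of each of these lists rose, where 19.3% of all rows in order were called higher. The summed level in control and endotoxemic libraries was 140 to 145 and 141 to 164 CPM, 188 to 190 and 403 to 408 CPM, 413 to 426 and 524 to 566 CPM, and 28.9 to 29.2 and 83.3 to 88.3 CPM, respectively. The sums of the endothelial and cholangiocyte lists were led by *Lyve1* and *Sox9* in the endotoxemic libraries. The 1 adipocyte marker tested, *Cfd*, fell, with 22 and 16 counts in control, 0 and 1 in endotoxemic and 32 and 106 in LGK974 libraries. In LGK974 against endotoxemic *Cfd* and *Pck1*, 1 of the 8 hepatocyte markers, were higher, where 2.82% of all rows in order were called higher. *Pf4* (1 of 2), *Clec4f* of Kupffer cells (1 of 6) and *Clec4g* of sinusoidal endothelial cells (1 of 5) were lower, against 2.64% of all rows in order. Of the tested neutrophil, stellate cell and cholangiocyte markers, 0 were called in either direction. The part of these cells in the results was not tested. In such bulk samples fewer cells of a type and less RNA per cell cannot be told apart.

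The table lists symbols in genomic order, with 581 of 23147 placed rows standing more than 2 Mb from where their gene lies. Of the 10 members, 6 stood in order. *Lcn2* (chr2:32384637-32387739) stood between *1110008P14Rik* and *Ptges2*, whose starts lie at -5.5 and 11.3 kb from its own. *Fgg* (chr3:83007724-83015056), *Fga* (chr3:83026153-83033627) and *Fgb* (chr3:83042246-83049863) stood on adjacent rows between *Lrat* and *Plrg1*. *Apcs* (chr1:172893961-172895054) stood between *Dusp23* and *Olfr16*, and *Itih3* (chr14:30908572-30923787) between *Mustn1* and *Itih1*, each with 1 row that was out of order beside it. *Orm1*, *Orm2*, *Orm3* and *Itih4* stood elsewhere in the genome, and no fold change or test between groups is given for them, only the counts on their rows. Coordinates are those of RefSeq on GRCm38.p6, the assembly that mm10 of the submitters' processing notes corresponds to.

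The promoters of *Apcs*, *Fgb* and *Fgg* are shown because their windows hold the letters CTGGGAA, the core of the type II IL-6 response element to which STAT3 binds. Each sequence is the 250 bases before the gene's start in RefSeq (GRCm38.p6), 5′ to 3′ on the gene's strand, at chr1:172895055-172895304 (minus strand), chr3:83049864-83050113 (minus strand) and chr3:83007474-83007723 (plus strand), respectively. Capitals mark CTGGGAA or its reverse complement TTCCCAG, the STAT motif TTCNNNGAA and the C/EBP motif TTGCNNAA.
Apcs: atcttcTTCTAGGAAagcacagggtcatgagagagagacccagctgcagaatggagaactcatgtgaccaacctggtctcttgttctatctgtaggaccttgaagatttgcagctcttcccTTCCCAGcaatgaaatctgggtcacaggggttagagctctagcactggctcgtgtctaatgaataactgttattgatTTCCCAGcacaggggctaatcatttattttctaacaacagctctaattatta
Fgb: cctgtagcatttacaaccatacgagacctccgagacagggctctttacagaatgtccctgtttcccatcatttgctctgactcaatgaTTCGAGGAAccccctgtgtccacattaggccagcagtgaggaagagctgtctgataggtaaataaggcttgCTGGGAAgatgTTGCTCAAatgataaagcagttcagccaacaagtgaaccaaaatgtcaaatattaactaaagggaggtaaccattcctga
Fgg: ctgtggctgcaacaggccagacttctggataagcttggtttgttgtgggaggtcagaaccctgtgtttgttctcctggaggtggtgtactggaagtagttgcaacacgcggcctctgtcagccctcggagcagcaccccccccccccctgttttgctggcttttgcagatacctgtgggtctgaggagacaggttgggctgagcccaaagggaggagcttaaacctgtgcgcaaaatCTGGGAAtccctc
Motifs were searched on both strands in the same window of 32851 RefSeq promoters, and the table held 9 of the 10 members, without *Orm1*. The windows of *Lcn2*, *Itih3* and *Fga* include 197, 173 and 77 bases of annotated exons, so that part of the sequence searched for these members is exonic. For *Itih3* the window, chr14:30923588-30923837 (minus strand), lies partly inside the span of the gene, which ends at 30923787. The full 250 bases before that start were thus not searched for *Itih3*. CTGGGAA was found in 3 of the 6 members in order and in 9.1% of all promoters. *Apcs* held it at positions -129 to -123 and -52 to -46 from the start, *Fgb* at -91 to -85 and *Fgg* at -13 to -7. TTCNNNGAA was found in *Apcs*, *Fga*, *Fgb* and *Itih4* and in 7.02% of promoters. TTGCNNAA was found in *Lcn2*, *Fga*, *Fgb*, *Orm2* and *Orm3* and in 9.56% of promoters. The NF-κB motif was found in 0 of the 9 members and in 7.25% of promoters, and TATAAA in *Orm2* and *Orm3* and in 12.4% of promoters. In *Fgb* 4 bases separate the CTGGGAA match from the C/EBP match. These matches describe the letters of the windows and not binding.

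The first comparison asked how LPS changed the liver transcripts of the set. All 6 members in order rose in endotoxemic livers, by edgeR's quasi-likelihood F test at an adjusted p (Benjamini-Hochberg) below 0.05, against 19.3% of the 12224 rows in order that were called higher. The range ran from a 1.96-fold difference for *Itih3* to a 237-fold difference for *Lcn2*. The median log2 fold change was 2.28 over the members and 0 over all these rows. For each of the 6 members, both endotoxemic libraries lay above both control libraries, as they did for 37.1% of the 12224 rows.

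**Figure D1:**
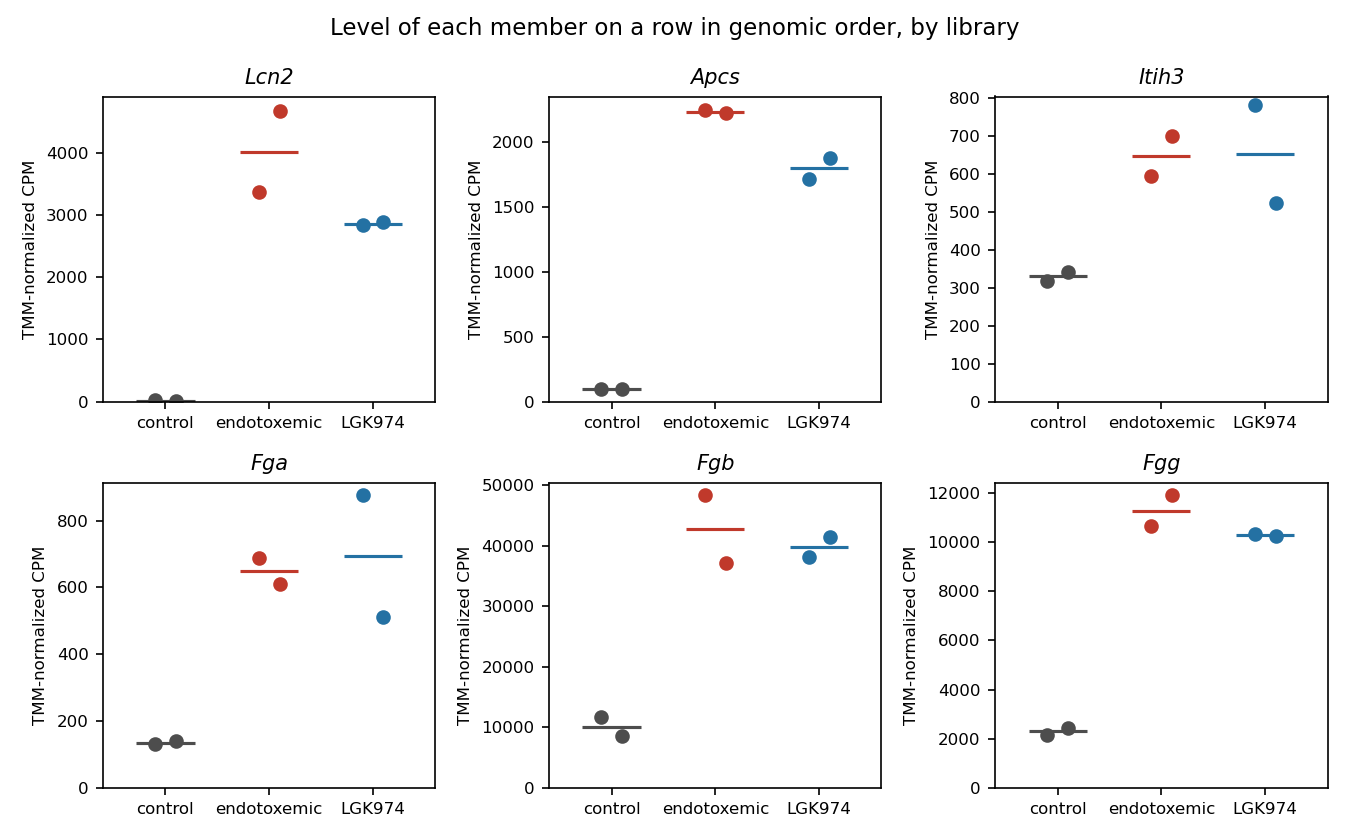
TMM-normalized CPM (vertical axis, from 0, a scale for each panel) of the 6 members on rows in genomic order, by group. Each point is a library (2 per group) and the line is their mean. In every panel both control libraries lie below the other 4, and for *Itih3*, *Fga* and *Fgb* the endotoxemic and LGK974 libraries overlap.

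*Lcn2* encodes lipocalin 2, which withholds iron from bacteria by binding their siderophores. The control libraries held 218 and 211 counts of it, those of the endotoxemic group 30894 and 43880, and those of the LGK974 group 37615 and 42611. On the TMM-normalized scale its level was 17.0 ± 4.55 CPM (SD, n = 2) in the control group, 4021 ± 923 CPM in the endotoxemic group and 2860 ± 31.2 CPM in the LGK974 group. Both control libraries were low, and each library of the other groups lay above them. The endotoxemic level was 237-fold the control level, with a 95% interval of 142 to 397 (log2 fold change 7.89, SE 0.33, adjusted p = 6.28e-07 in edgeR's test), and this fold change ranked 34 among the 12224 rows. *Lcn2* is also a protein of neutrophil granules. Of 12 neutrophil markers 7 stood in order and 6 could be tested, and all 6 rose in the endotoxemic group, against 19.3% of all rows in order called higher. Their summed level was 1.76 to 2.35 CPM in control, 99.4 to 111 CPM in endotoxemic and 66.1 to 72.1 CPM in LGK974 libraries. Granule genes *Mpo*, *Ngp*, *Ltf* and *Camp* were at 0 counts in both control libraries, and *Ngp*, the highest of these 4, had 265 and 283 counts in the endotoxemic libraries. *Mmp8*, the highest of the 7 markers in the endotoxemic libraries, had 0 and 7 counts in control and 381 and 493 in endotoxemic libraries. The part of neutrophils in the *Lcn2* level was not tested.

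*Apcs* encodes serum amyloid P, the pentraxin that is the main acute-phase protein of its family in mice. Its counts were 1068 and 1494 in control libraries, 20587 and 20902 in endotoxemic libraries and 22715 and 27828 in LGK974 libraries. The corresponding levels were 98.3 ± 1.05, 2236 ± 12.96 and 1798 ± 119 CPM (SD, n = 2 each). The libraries of each group lay close together, and the groups did not overlap. *Apcs* rose 22.7-fold, with a 95% interval of 16.4 to 31.4 (log2 fold change 4.51, SE 0.21, adjusted p = 1.09e-06 in edgeR's test).

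*Fga*, *Fgb* and *Fgg* encode the Aα, Bβ and γ chains of fibrinogen, which hepatocytes assemble into a hexamer and secrete, and which thrombin converts to fibrin. *Fgb* had 125730 and 130203 counts in control libraries, 443651 and 348869 in endotoxemic libraries and 505446 and 612580 in LGK974 libraries. *Fgg* had 23174 and 37518, then 97547 and 111876, then 136585 and 151340 counts in the same order. *Fga* had 1409 and 2146, then 6312 and 5731, then 11613 and 7556 counts. Every LPS-treated library thus exceeded both control libraries for each chain. The rises lay close to each other, at 4.9-fold for *Fgg* (95% interval 3.6 to 6.67, adjusted p = 2.85e-05), 4.79-fold for *Fga* (3.15 to 7.3, adjusted p = 0.000179) and 4.24-fold for *Fgb* (2.92 to 6.17, adjusted p = 0.000145) in edgeR's test. No difference between the chains was tested.

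Together the 3 fibrinogen chains held 1.12 to 1.36% of all counts in control libraries, 5.09 to 5.99% in endotoxemic libraries and 4.82 to 5.29% in LGK974 libraries. All 6 members in order held 1.16 to 1.4%, 5.87 to 6.61% and 5.34 to 5.83%, so that fibrinogen made up most of the set's counts in every library. Within a library the ratio of *Fgb* to *Fgg* counts was 3.12 to 5.43 and that of *Fga* to *Fgg* counts 0.0499 to 0.085. The ratio of *Fgb* to *Fgg* was 5.43 and 3.47 in control, 4.55 and 3.12 in endotoxemic and 3.7 and 4.05 in LGK974 libraries, without separating the groups. A count from the 3′ end depends on how well that end is captured, so these ratios are not those of the chains.

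*Itih3* encodes a heavy chain of the inter-α-trypsin inhibitor family, which is transferred onto hyaluronan in the extracellular matrix. Its counts were 3438 and 5235 in control libraries, 5445 and 6557 in endotoxemic libraries and 10341 and 7741 in LGK974 libraries. Its levels were 330 ± 16.3, 646 ± 74.1 and 652 ± 181 CPM (SD, n = 2 each), and both endotoxemic libraries lay above both control libraries. *Itih3* rose 1.96-fold, with a 95% interval of 1.36 to 2.81 (log2 fold change 0.97, SE 0.23, adjusted p = 0.00863 in edgeR's test), the smallest rise among the 6. Its call was lost without control replicate 1 (adjusted p = 0.081), without control replicate 2 (adjusted p = 0.0568) or without endotoxemic replicate 2 (adjusted p = 0.0719), where the lone library of a group was assumed to vary like the others.

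The next comparison asked whether the levels differed when LGK974 was given with LPS. None of the 6 members passed edgeR's test between the LGK974 and endotoxemic groups, where 2.82% of the 12224 rows were called higher and 2.64% lower. At an unadjusted p below 0.05 there were 0 members, and 2762 of the 12224 rows. DESeq2 also called 0 members. The median log2 fold change was -0.12 over the members and 0.04 over all rows.

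For *Lcn2* the LGK974 level was 0.711 of the endotoxemic level, with a 95% interval of 0.487 to 1.04 (adjusted p = 0.264 in edgeR's test), and both LGK974 libraries lay below both endotoxemic libraries. For *Apcs* it was 0.804 of that level, with an interval of 0.608 to 1.06 (adjusted p = 0.333), again without overlap. *Fgg* also did not overlap, at 0.911 of the endotoxemic level with an interval of 0.679 to 1.22 (adjusted p = 0.711). Over all 12224 rows, 25.6% were lower in the LGK974 group without overlap. For the other 3 members the libraries of the groups overlapped. *Fgb* was at 0.93 (0.649 to 1.33, adjusted p = 0.827), *Itih3* at 1.01 (0.705 to 1.44, adjusted p = 0.983) and *Fga* at 1.07 (0.715 to 1.6, adjusted p = 0.862). These intervals allow a fall of *Lcn2* to 0.487 and a rise of *Fga* to 1.6 of the endotoxemic level. The LGK974 libraries of *Fga* were 876 and 511 CPM, one above and one below both endotoxemic libraries at 688 and 610 CPM.

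**Figure D2:**
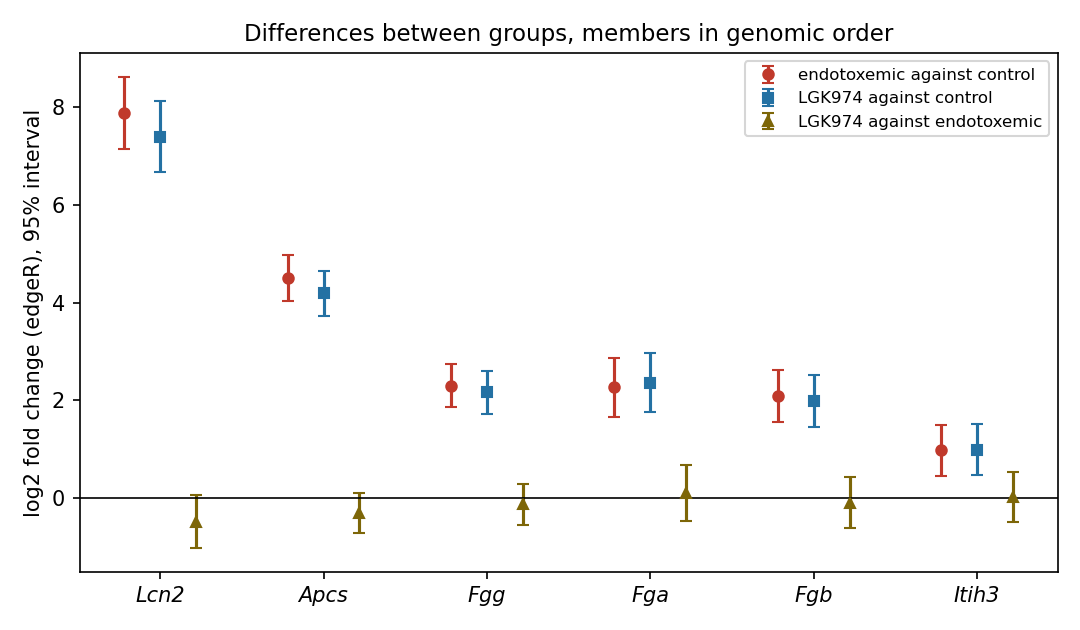
Log2 fold change (vertical axis) of the 6 members in order in each comparison, from edgeR's model of all 3 groups, with bars for the 95% interval. Both comparisons against control lie above 0 for every member, and each interval of LGK974 against endotoxemic includes 0.

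Against the control group, all 6 members were higher in the LGK974 group and passed edgeR's test, where 15.3% of the 12224 rows were called higher. *Lcn2* was 169-fold higher (log2 fold change 7.40, SE 0.32, adjusted p = 6.96e-07) and *Apcs* 18.3-fold higher (4.19, SE 0.20, adjusted p = 1.34e-06). *Fga* was 5.12-fold, *Fgg* 4.46-fold and *Fgb* 3.95-fold higher, and the fold for *Itih3* was 1.97 (adjusted p = 0.0105). The comparisons of both LPS groups share the control libraries. The call for *Itih3* was lost without control replicate 1 (adjusted p = 0.0987) or control replicate 2 (adjusted p = 0.0702).

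*Orm1*, *Orm2* and *Orm3* encode the orosomucoids, or α1-acid glycoproteins, which carry lipophilic ligands in plasma. The 3 genes lie side by side at chr4:63344556-63348163, chr4:63362449-63365877 and chr4:63356069-63359506, respectively. Their symbols stood away from this place, *Orm1* among genes of chromosome 7, *Orm2* between *Igf2os* and *Th* on the same chromosome, and *Orm3* between *Gm10560* and *Ttll10* at the far end of chromosome 4. The row named *Orm1* had 7124 and 8865 counts in control, 37 and 46 in endotoxemic and 58 and 78 in LGK974 libraries. The row named *Orm2* had 1244 and 1580 counts in control libraries and 0 in the other 4, which allows up to 3 counts in each. The row named *Orm3* had 366 and 360 counts in control, 4 and 5 in endotoxemic and 6 and 5 in LGK974 libraries. All 3 rows were high in the control libraries alone.

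Between *Col27a1* and *Akna*, the ordered neighbours of the orosomucoid cluster, the table should hold 3 genes and holds 3 rows, named *Nlrp6*, *Ccr4* and *Cxcl15*, all out of order. The row named *Nlrp6* had 575 and 656 counts in control, 53853 and 53057 in endotoxemic and 106535 and 144392 in LGK974 libraries. The row named *Cxcl15* had 0 counts in both control libraries, 9888 and 9129 in endotoxemic and 15893 and 23732 in LGK974 libraries. The row named *Ccr4* had 0 and 4, then 537 and 442, then 815 and 1224 counts. The rows at the cluster's place were thus low in control and high in the other libraries, opposite to the rows with the orosomucoid symbols. Which gene the counts of such a row belong to in each group was not tested. The last 300 bases of the transcripts are 97.7% identical between *Orm1* and *Orm2*, 90.7% between *Orm1* and *Orm3* and 91.4% between *Orm2* and *Orm3*, so reads may also be split among these copies.

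*Itih4* encodes another member of the inter-α-trypsin inhibitor family, a plasma protein made by the liver. Its place is chr14:30886476-30901986, and its symbol stood between *6330415B21Rik* and *Reg3d* on chromosome 6. That row had 6600 and 10330 counts in control, 157 and 95 in endotoxemic and 1504 and 4939 in LGK974 libraries. At the place of *Itih4*, between *Mustn1* and *Itih3*, stood 1 row, named *Il34*, with 26 and 44 counts in control, 15705 and 19042 in endotoxemic and 27718 and 31995 in LGK974 libraries. As with the orosomucoids, the symbol's row was highest and the row at its place lowest in the control libraries.

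**Figure D3:**
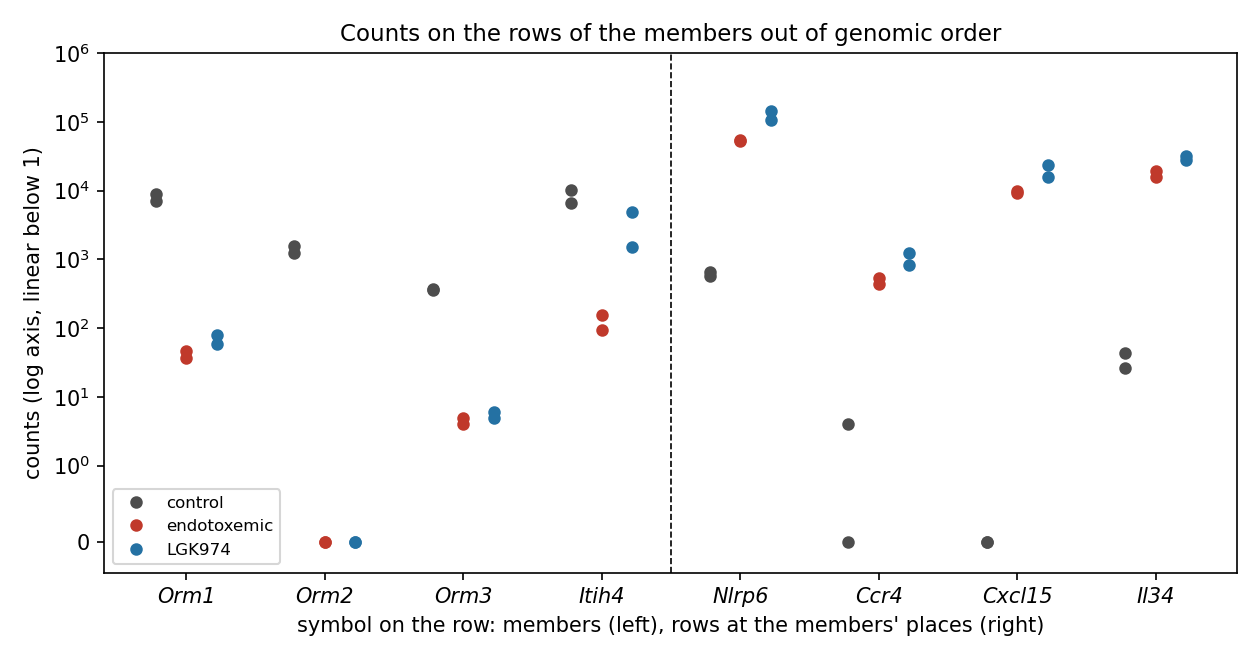
Counts (vertical axis, logarithmic above 1 and linear below) on the rows named for the 4 members out of genomic order, left of the dashed line, and on the rows that stood at their places, right of it. Each point is a library (2 per group). The control libraries are highest on the left and lowest on the right.

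Other genes of the acute-phase response were taken from lists. Of 23 other positive acute-phase genes, 12 stood out of order, among them *Saa1*, *Hp*, *Crp* and *C3*. Of the 11 tested, 9 rose and 1 fell in the endotoxemic group, against 19.3% of all rows in order called higher and 22.7% lower, with a median log2 fold change of 2.23. The largest rises were *Steap4*, a metalloreductase (52.8-fold, adjusted p = 1.29e-05), and the metallothioneins *Mt1* (11.7-fold, adjusted p = 5.08e-06) and *Mt2* (8.92-fold, adjusted p = 5.45e-06). The complement component *C9* fell (log2 fold change -0.75, adjusted p = 0.024), and it was the 1 gene of the list that passed the test in LGK974 against endotoxemic, where it was higher (1.15, adjusted p = 0.0229), against 2.82% of all rows in order called higher and 2.64% lower. *C9* had 482 and 938 counts in control, 269 and 316 in endotoxemic and 1005 and 949 in LGK974 libraries.

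Of 10 tested negative acute-phase genes, whose plasma proteins decline in inflammation, 0 rose and 7 fell in the endotoxemic group, against 22.7% of all rows in order called lower. The largest falls were *Rbp4*, the retinol carrier (log2 fold change -2.31, adjusted p = 5.06e-05), *Mug1*, a proteinase inhibitor (-2.10, adjusted p = 0.000128), and *Ttr*, the thyroxine carrier (-1.48, adjusted p = 0.000465). Of 10 tested secreted coagulation factors beside fibrinogen, 0 rose and 8 fell against the same 22.7%, led by *Serpind1*, heparin cofactor II (-2.78, adjusted p = 3.37e-05), *F5* (-2.49, adjusted p = 1.76e-05) and *F7* (-2.38, adjusted p = 3.37e-05). The median of this list was -1.24, where the 3 fibrinogen genes were each above 2 on the same scale.

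Of the 5 tested genes related to the inter-α-trypsin inhibitor outside the set, 2 fell and 1 rose. Over all rows in order, 22.7% were called lower and 19.3% higher. *Itih5* (log2 fold change -1.53, adjusted p = 0.00308) and *Itih1* (-0.87, adjusted p = 0.0175) fell, while *Itih3*, whose row is next to that of *Itih1*, rose. *Ambp* and *Itih2* did not pass the test. *Tnfaip6*, the enzyme that transfers heavy chains to hyaluronan, rose (adjusted p = 0.00752) from 0 and 2 counts in control to 10 and 36 counts in endotoxemic libraries. Of 13 tested genes of acute-phase signalling, 6 rose and 5 fell, where 19.3% of all rows in order were called higher and 22.7% lower. The rises were led by *Socs3*, the feedback inhibitor of STAT3 (3.61, adjusted p = 2.76e-05), *Osmr*, the oncostatin M receptor (3.54, adjusted p = 5.42e-05), and *Cebpd* (3.24, adjusted p = 1.17e-05). The falls were led by *Lifr*, the receptor of leukaemia inhibitory factor (-2.56, adjusted p = 8.93e-05), and *Nr3c1*, the glucocorticoid receptor (-1.21, adjusted p = 0.0038). In LGK974 against endotoxemic, 0 of these 13 genes were higher and 2 were lower, against 2.82% and 2.64% of all rows in order. They were *Nfkb1*, a subunit of NF-κB (-1.46, adjusted p = 0.0185), and *Cebpa*, a C/EBP factor of hepatocytes (-0.83, adjusted p = 0.0446). Of the 10 negative acute-phase genes, *Apoa4* was higher (1.00, adjusted p = 0.0284) and 0 were lower in that comparison. These 3 genes were named after their values were seen. *Il6*, *Il1b*, *Tnf* and *Stat3* were among the 13 others of that list that stood out of order and are not given.

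**Figure D4:**
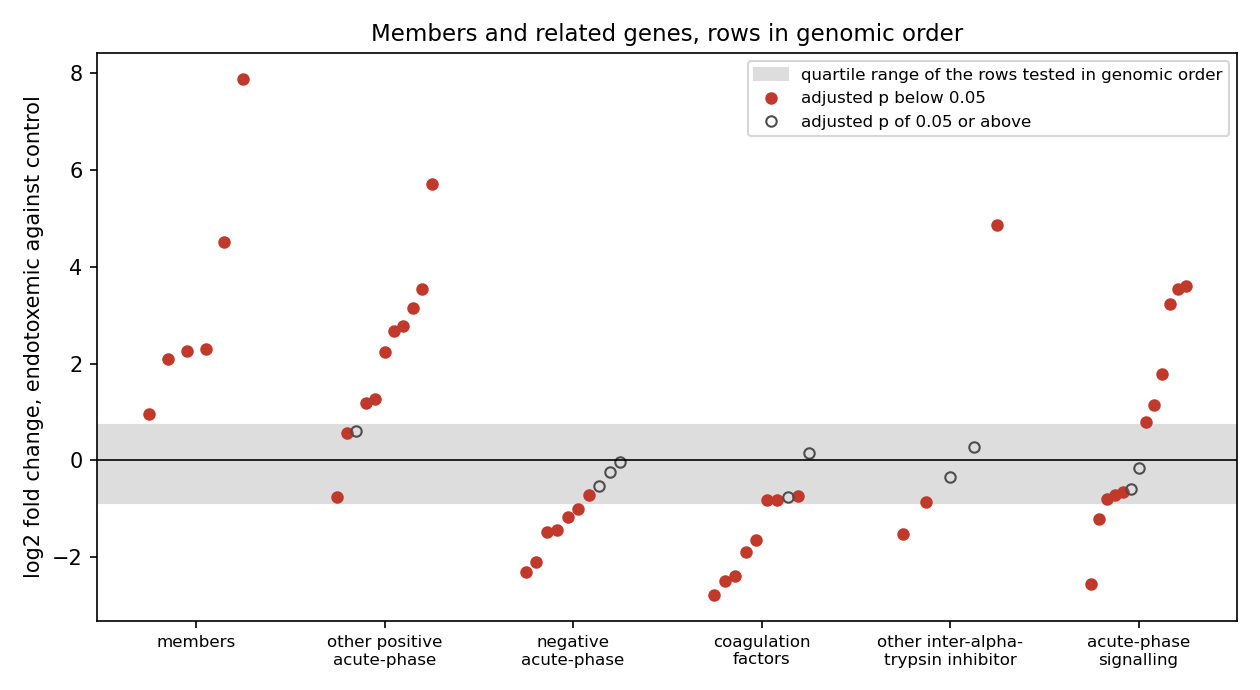
Log2 fold change of endotoxemic against control (vertical axis) for the 6 members in order and for 5 lists of related genes (horizontal axis), on rows in genomic order. Each point is a gene, filled where it passed edgeR's test, and the band holds the rows tested between the lower and upper quartiles. The members all lie above the band, and every coagulation factor and negative acute-phase gene that passed lies below 0.

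For each member, the non-member row with the most similar pattern of log2(CPM + 1) over the 6 libraries was found among the 12224 rows. It was *Lrg1*, which encodes another secreted acute-phase glycoprotein, for *Lcn2* (Pearson's r = 0.999), *Rhoc* for *Apcs* (r = 0.9998), *Mpg* for *Itih3* (r = 0.999), *Tex30* for *Fga* (r = 0.9992), *S100a11* for *Fgb* (r = 0.9989) and *Col4a1* for *Fgg* (r = 0.9993). *Lrg1* was at 487 and 451 CPM in control, 5609 and 6043 CPM in endotoxemic and 4549 and 5174 CPM in LGK974 libraries. For a given member, 327 to 597 non-member rows had r above 0.95 and 17 to 74 had r above 0.99. Likeness between members was not examined.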

How the data were processed

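The authors deposited counts of reads per gene symbol, without normalization, for 8 liver libraries made with the Lexogen QuantSeq 3′ kit. The submitters' processing notes name Bowtie2, edgeR and mm10, and the counting step is not given in the sources used here. A few rows repeat a symbol, but none of them is a member's.

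Rows were compared with RefSeq positions on GRCm38.p6. A row was out of order where its gene lies more than 2 Mb from its ordered neighbours.

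Differences were tested with edgeR 4.0.16 under R 4.3.3 (filterByExpr, TMM, 1 quasi-likelihood model of the 6 distinct libraries). Benjamini-Hochberg adjustment covered all 12701 rows tested, and shares of called rows refer to the 12224 of these in genomic order. The model was tested on simulated data. Alternatives were DESeq2 1.42.0, other scalings and filters, fewer samples, all libraries counted separately and leaving out each library. No source says that libraries are separate mice, so p-values measure only the spread between these samples, which may be technical.

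The members and lists were chosen with earlier results of these data known. All members are named, and from each list up to 3 of the largest rises and falls past the threshold in endotoxemic against control, on rows in order, except 1 gene of the signalling list that is not reported here. Repeated libraries were left out.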

Additional observations from a re-analysis of the deposited data

How the results depend on the processing

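Across 16 alternatives for each comparison, all 6 members in order stayed higher against control, and *Lcn2*, *Apcs*, *Fga*, *Fgb* and *Fgg* passed the test in each. The endotoxemic against control log2 fold change ranged from 7.64 to 8.19 for *Lcn2* and from 0.85 to 1.14 for *Itih3*. With the identical endotoxemic libraries counted separately, the number of members lower in LGK974 against endotoxemic became 1 (*Apcs*, log2 fold change -0.31, adjusted p = 0.0419), since repeated counts narrow the spread. In that comparison *Itih3* turned from 0.01 to -0.0024 with DESeq2, -0.0032 with RLE size factors, -0.021 with library totals only, -0.13 without endotoxemic replicate 1 and -0.30 without LGK974 replicate 1. *Fga* turned from 0.09 to -0.34 without LGK974 replicate 1, and *Fgb* from -0.10 to 0.069 without endotoxemic replicate 1. Leaving out 1 library at a time, the value ranged from -0.30 to 0.27 for *Itih3*, from -0.34 to 0.43 for *Fga*, from -0.28 to 0.069 for *Fgb*, from -0.74 (without endotoxemic replicate 1) to -0.24 (without endotoxemic replicate 2) for *Lcn2* and from -0.24 to -0.050 (without endotoxemic replicate 2) for *Fgg*. None of these passed the test, and the cause was not tested.

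With the replicate block, 6 members were higher against control in both comparisons and 0 differed between LGK974 and endotoxemic, with *Lcn2* at 7.89 and *Itih3* at 0.97 in endotoxemic against control. It changed no call of a member. To see whether replicate numbers pair libraries, the mean log2 CPM of its group was subtracted from each library, over the 12701 rows tested. The remaining deviations of same-numbered libraries correlated at 0.14, -0.0075 and 0.061, so the numbers were not taken to pair them. With 2 libraries per group, the intervals given set how closely a difference in LGK974 against endotoxemic is known.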
